A study of Mus musculus with 23 samples.

Results

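Cytotoxic effector genes are the genes through which CD8+ T cells kill and signal, and they were followed here as a set of 10 mouse genes: the granzymes Gzma, Gzmb and Gzmk, the pore former Prf1, the cytokine Ifng, the death ligand Fasl, the granule membrane protein gene Nkg7, and the transcription factors Eomes, Tbx21 and Prdm1. Each was read through every probe set that the array's annotation assigns to that gene alone. This gave 13 probe sets, of 22626 tested, and 10 genes, of 12393. Of the genes, 7 had 1 probe set each, and Prf1, Fasl and Eomes had 2.

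Gene expression had been measured on 23 Affymetrix mouse arrays in 6 labelled groups. From Snf5-deficient lymphomas came 5 arrays of purified CD8+ T cells, and from wild-type mice 6 arrays of purified CD8+ T cells, all from animals 10 to 15 weeks old. Embryonic fibroblasts (MEFs) of stage E13.5 had lost Snf5 and Ezh2 or Ezh2 alone by conditional inactivation, with 3 arrays for each line, and each line came with its own titled set of 3 wild-type arrays. The sources used here do not give the strain, the alleles, the Cre driver, how the CD8+ cells were purified, or any stimulation of the wild-type T cells. The titles speak of biological replicates without saying whether each is a separate animal or culture, and p-values cover the spread between these arrays alone. Snf5, the product of Smarcb1, belongs to the core of the SWI/SNF complexes that remodel chromatin, and Ezh2 is the histone methyltransferase of Polycomb repressive complex PRC2.

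A resting CD8+ T cell holds little of the killing machinery. After activation it builds granules loaded with perforin, which forms pores in the target cell's membrane, and granzymes, serine proteases that enter through them and start cell death. It also makes interferon gamma, which acts on macrophages and on antigen presentation, and Fas ligand, which triggers death through the receptor Fas. The T-box factors T-bet, encoded by Tbx21, and Eomesodermin, encoded by Eomes, bind related DNA motifs and drive this program together, with T-bet tied more to short-lived effector cells and Eomesodermin more to memory cells. Blimp-1, encoded by Prdm1, promotes terminal effector differentiation.

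Values are log2 intensities after Robust Multichip Average (RMA) processing, a method that corrects background, normalises arrays to each other and summarises the probes of a probe set. Differences are in log2 units, so 1 unit is a doubling, and a probe set was called changed at a Benjamini-Hochberg adjusted p under 0.05 in limma over all 22626 probe sets. A value in the lowest 25% of its own array is described as near the floor, because the deposited values carry no detection calls. Smarcb1 (probe set 1416045_a_at) averaged 7.38 ± 1.52 in the lymphomas and 11.03 ± 0.47 in wild-type CD8 arrays (SD, n = 5 and 6), in the direction of the labels, although the position of its probes relative to the deleted part of the gene is not given. Lymphomas 1 and 5 were the most alike pair of T cell arrays (SD of their difference 0.377 over bright probe sets). Next were wild-type replicates 3 and 4 (0.480), lymphomas 3 and 4 (0.489) and wild-type replicates 1 and 6 (0.494). Lymphomas 1 and 5 had high Xist (11.36 and 11.58), the RNA of the inactive X chromosome, whereas lymphomas 2 to 4 had high levels of the Y-linked gene Eif2s3y (11.81 to 12.55). On the 6 wild-type CD8 arrays Xist, by 1427262_at, was 11.61 to 13.16. Eif2s3y was 3.20 to 9.84 there, with 4 of 6 near the floor. The groups were thus not matched in these markers, and the part of sex in the member values was not tested.

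Wild-type CD8 replicates 1 and 6 stood apart from the other wild-type arrays. The mean log2 level of 7 B cell markers was 6.44 to 7.36 in the lymphomas, 7.73 to 8.71 in wild-type replicates 2 to 5, and 11.16 and 11.22 in wild-type replicates 1 and 6. For 9 myeloid markers the means were 8.14 to 10.35 in the lymphomas, 6.51 to 7.85 in wild-type replicates 2 to 5, and 12.19 and 12.11 in wild-type replicates 1 and 6. Cd8b1, the beta chain of the CD8 co-receptor, was 11.97 to 12.90 in the lymphomas and 12.53 to 13.61 in wild-type replicates 2 to 5, but 9.35 and 8.07 in wild-type replicates 1 and 6. No defining B cell marker was near the floor on all lymphoma arrays, against 1 of the 9 myeloid markers. The member genes are therefore given below against all 6 wild-type arrays and against wild-type replicates 2 to 5. Both comparisons share their lymphoma arrays and are not independent of each other, and a difference with no other group named is against all 6. In RNA of a whole sample, fewer cells that express a gene and less RNA per cell cannot be told apart.

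**Figure D1:**
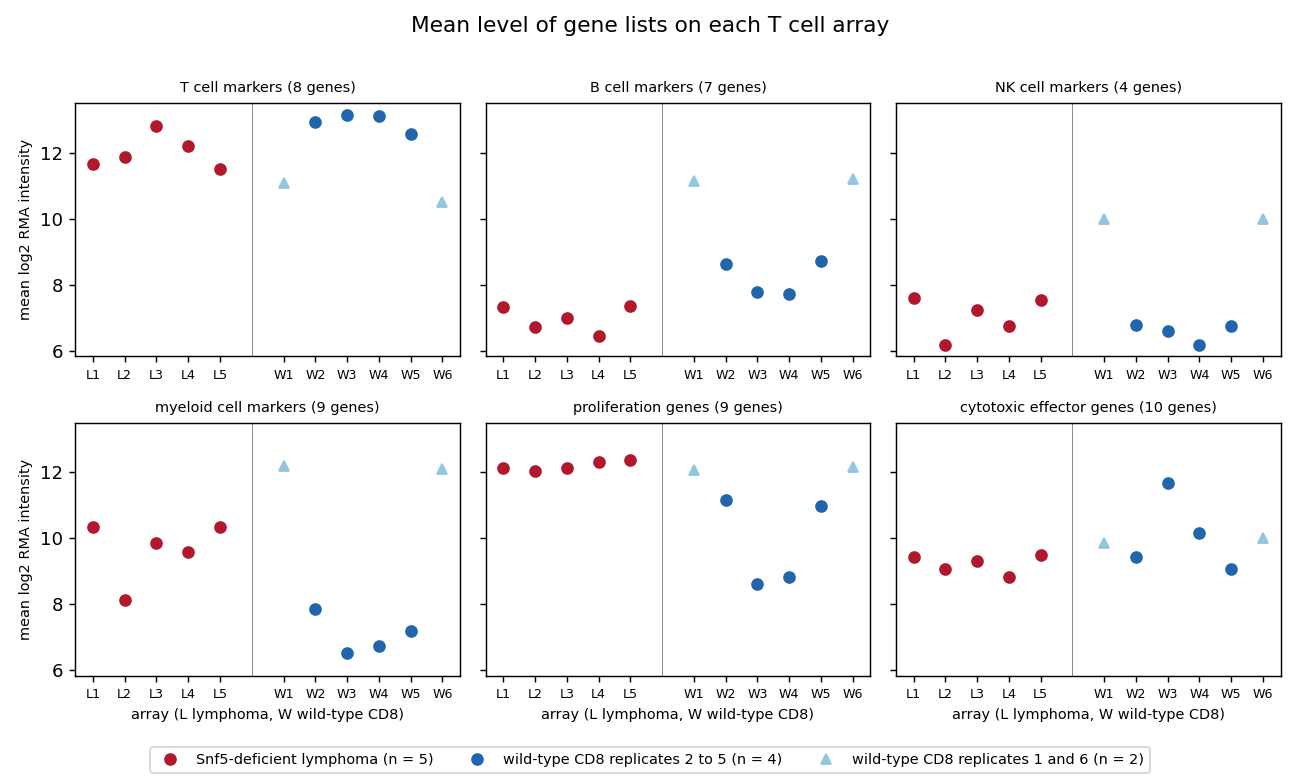
Mean log2 RMA intensity (vertical axis) of 5 marker lists and of the 10 cytotoxic effector genes on each T cell array (horizontal axis), with lymphomas in red, wild-type CD8 replicates 2 to 5 in dark blue and wild-type CD8 replicates 1 and 6 as light triangles. B cell, NK cell and myeloid markers were highest on wild-type replicates 1 and 6, and the cytotoxic effector genes were highest on wild-type replicate 3.

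The promoters of the granzymes and of Nkg7 are shown because the members differ in 3 sequence motifs of lymphocyte transcription factors: GGTGTGA, a core of the T-box motif bound by T-bet and Eomesodermin, TGTGGT, bound by RUNX factors, and TGACTCA, bound by AP-1 factors. Each sequence is RefSeq's, from GRCm38.p6, runs 5′ to 3′ from 250 bases before the start of the gene to 50 bases after it, and has motif matches on either strand in capitals.
Gzmk promoter, chr13:113180916-113181215, minus strand: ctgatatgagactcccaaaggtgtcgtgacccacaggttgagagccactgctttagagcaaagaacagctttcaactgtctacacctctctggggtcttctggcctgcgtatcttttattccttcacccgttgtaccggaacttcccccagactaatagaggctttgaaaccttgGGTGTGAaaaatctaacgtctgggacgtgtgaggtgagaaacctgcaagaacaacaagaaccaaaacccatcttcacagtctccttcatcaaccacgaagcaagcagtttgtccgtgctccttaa
Gzma promoter, chr13:113100932-113101231, minus strand: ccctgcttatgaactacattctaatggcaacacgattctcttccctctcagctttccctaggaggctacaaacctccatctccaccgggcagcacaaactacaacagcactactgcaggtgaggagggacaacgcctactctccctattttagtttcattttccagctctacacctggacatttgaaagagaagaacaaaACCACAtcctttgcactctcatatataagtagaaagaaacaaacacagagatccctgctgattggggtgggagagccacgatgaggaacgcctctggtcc
Gzmb promoter, chr14:56262285-56262584, minus strand: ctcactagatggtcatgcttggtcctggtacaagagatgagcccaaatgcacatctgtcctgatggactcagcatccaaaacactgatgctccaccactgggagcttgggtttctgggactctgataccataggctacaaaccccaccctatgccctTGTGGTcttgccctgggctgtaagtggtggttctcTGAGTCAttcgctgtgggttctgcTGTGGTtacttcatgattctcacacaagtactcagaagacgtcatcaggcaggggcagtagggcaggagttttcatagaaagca
Nkg7 promoter, chr7:43436888-43437187, plus strand: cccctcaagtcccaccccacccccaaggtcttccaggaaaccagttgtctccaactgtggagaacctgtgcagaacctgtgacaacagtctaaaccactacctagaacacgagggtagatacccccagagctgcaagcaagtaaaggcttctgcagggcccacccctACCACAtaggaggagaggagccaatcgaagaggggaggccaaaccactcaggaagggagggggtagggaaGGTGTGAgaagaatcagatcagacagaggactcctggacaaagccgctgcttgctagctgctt
All 10 members matched a RefSeq promoter. The window of Prdm1, chr10:44458699-44458998 on the minus strand, lies inside the gene's span of 44437174 to 44528558 and not at its outer end. The T-box motif occurred in 2 of the 10, Gzmk at position -75 and Nkg7 at position -13 from the start, against 3.98% of all 32851 promoters. The RUNX motif occurred in 4, Gzma at -50, Gzmb at -93 and -34, Prf1 at -130 and Nkg7 at -83, against 16.8% of all promoters. The AP-1 motif occurred in 1, Gzmb at -58, against 5.2% of all promoters. The 3 motifs did not overlap in these windows. Gzmk and Gzma lie close together on chromosome 13, at 113171630 to 113180965 and at 113093824 to 113100981, and Gzmb lies on chromosome 14 at 56258836 to 56262334.

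The question of the lymphoma comparison, per the series' design text, is which gene programs are misregulated when Snf5 is lost during tumour formation. Among the cytotoxic effector genes, Eomes and Gzmk were far lower in the lymphomas, and no member was called higher. By limma, 3 of 13 member probe sets were called lower and 0 higher against all 6 wild-type arrays, where 6.83% of all probe sets were called lower and 8.47% higher. The 3 were both Eomes probe sets and Gzmk, and without adjustment the counts at p under 0.05 were also 3 lower and 0 higher. Against wild-type replicates 2 to 5 the same 3 were called lower and 0 higher, where 12.8% of all probe sets were called lower and 11.8% higher. Without adjustment 4 were lower there and 0 higher. The median change of the 13 probe sets was -0.21 against all 6 wild-type arrays, beside -0.07 over all probe sets, and -0.05 against replicates 2 to 5, beside -0.12 over all probe sets. The other members, Gzma, Gzmb, Prf1, Ifng, Fasl, Nkg7, Tbx21 and Prdm1, did not pass the test in either comparison, with intervals that span from narrow, for Nkg7, to very wide, for Gzma and Ifng.

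**Figure D2:**
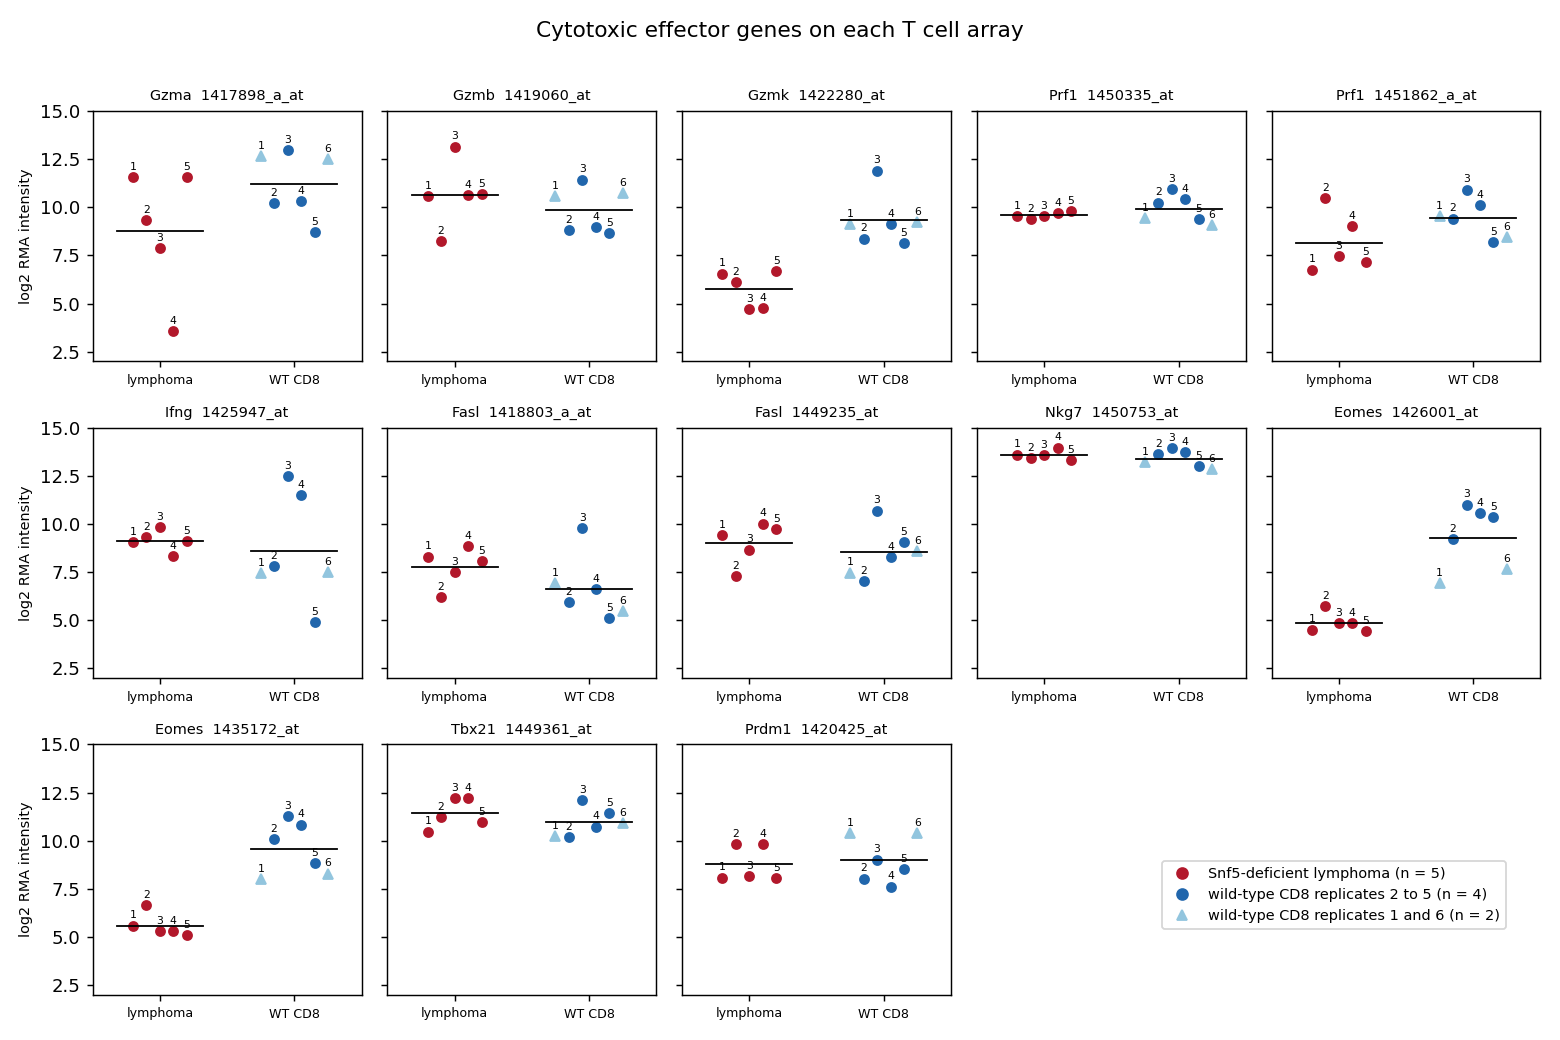
Log2 RMA intensity (vertical axis) of the 13 probe sets on each lymphoma array (left of each panel) and wild-type CD8 array (right), numbered by replicate, with the group mean as a bar. The 5 lymphomas lie below every wild-type array for both Eomes probe sets and Gzmk, and the groups overlap in the other panels. The share of all probe sets whose groups do not overlap is not given here, so how common this is cannot be judged.

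**Figure D3:**
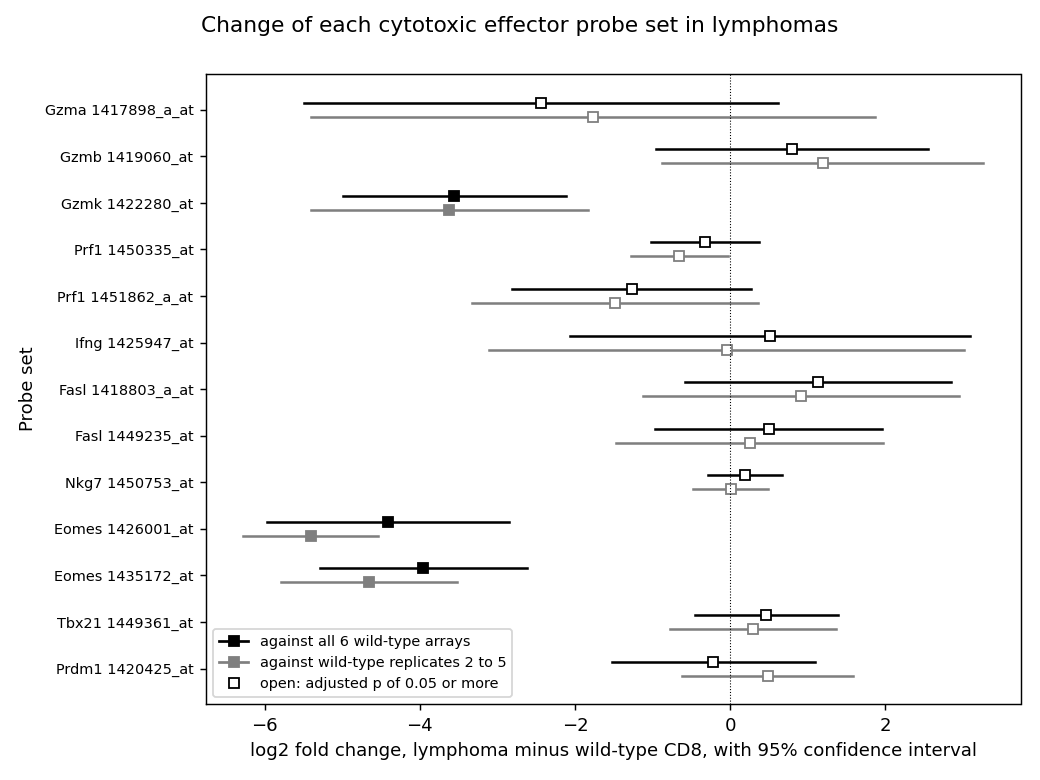
Log2 fold change, lymphoma minus wild-type CD8 (horizontal axis), with its 95% confidence interval for each probe set, against all 6 wild-type arrays (black) and against wild-type replicates 2 to 5 (grey); filled squares passed an adjusted p of 0.05. Both Eomes probe sets and Gzmk lie between -5.41 and -3.55, and the other intervals for all 6 wild-type arrays include 0.

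Granzyme K, a trypsin-like protease typical of memory-type CD8+ T cells, fell in the lymphomas. Gzmk was 6.55, 6.10, 4.72, 4.76 and 6.68 in lymphomas 1 to 5, against 9.14, 8.37, 11.90, 9.13, 8.13 and 9.23 in wild-type replicates 1 to 6. The groups did not overlap, lymphomas 3 and 4 were near the floor, and wild-type replicate 3 was far above the other wild-type arrays. The difference was -3.55 (SE 0.65, 95% interval -4.99 to -2.12), or 11.7-fold lower, with an adjusted p of 0.00492 in limma. Against wild-type replicates 2 to 5 it was -3.62 (adjusted p 0.0104 in limma). With replicate number as a block that second difference was -3.82 with an adjusted p of 0.0523 in limma, which no longer passed.

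Its chromosomal neighbour Gzma, a trypsin-like protease and the most abundant granzyme of many killer cells, varied more among the lymphomas than any other member. Gzma was 11.58, 9.31, 7.90, 3.57 and 11.58 in lymphomas 1 to 5, against 12.65, 10.22, 12.98, 10.33, 8.72 and 12.48 in wild-type replicates 1 to 6. Lymphomas 1 and 5 reached wild-type levels, while lymphoma 4 was near the floor. The difference was -2.44 (95% interval -5.50 to 0.62, adjusted p 0.267 in limma) against all 6 wild-type arrays and -1.77 (-5.40 to 1.86, adjusted p 0.428) against replicates 2 to 5. Without lymphoma 4 these became -1.13 and -0.47, and without wild-type replicate 3 the second was -0.96.

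Granzyme B, which cleaves caspases and is the main apoptosis-inducing granzyme, did not pass the test. Gzmb was 10.56, 8.26, 13.14, 10.64 and 10.67 in lymphomas 1 to 5, against 10.56, 8.82, 11.44, 8.95, 8.64 and 10.71 in wild-type replicates 1 to 6. Lymphoma 3 was above every wild-type array and lymphoma 2 below every one. The difference was 0.80 against all 6 wild-type arrays (95% interval -0.95 to 2.55, adjusted p 0.523 in limma) and 1.19 against replicates 2 to 5 (adjusted p 0.350). Lymphoma 3 thus had the highest Gzmb of the 11 arrays beside a Gzmk near the floor, and lymphoma 4 had a Gzmb of 10.64 beside Gzma and Gzmk near the floor.

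Perforin was read by 2 probe sets that behaved differently in the lymphomas. By 1450335_at, Prf1 was 9.54, 9.38, 9.52, 9.69 and 9.81 in lymphomas 1 to 5, against 9.44, 10.24, 10.96, 10.40, 9.39 and 9.06 in wild-type replicates 1 to 6. By 1451862_a_at, it was 6.76, 10.47, 7.46, 9.01 and 7.15 in lymphomas 1 to 5, against 9.54, 9.41, 10.91, 10.10, 8.19 and 8.45 in wild-type replicates 1 to 6. The first was nearly level over the lymphomas, whereas the second had lymphomas 1, 3 and 5 below all wild-type arrays and lymphoma 2 near the top. Neither passed against all 6 wild-type arrays, with differences of -0.32 (-1.02 to 0.37, adjusted p 0.515 in limma) and -1.26 (-2.81 to 0.28, adjusted p 0.253). Against wild-type replicates 2 to 5 the differences were -0.66 (adjusted p 0.111) and -1.48 (adjusted p 0.201), and without wild-type replicate 5 the first became -0.94 with an adjusted p of 0.00823 in limma. The sources used here do not say which Prf1 transcripts each probe set reads.

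Interferon gamma was even over the lymphomas and very uneven over the wild-type arrays. Ifng was 9.07, 9.31, 9.84, 8.33 and 9.11 in lymphomas 1 to 5, against 7.46, 7.80, 12.49, 11.51, 4.91 and 7.50 in wild-type replicates 1 to 6. All lymphomas lay above 4 of the wild-type arrays and below wild-type replicates 3 and 4. The SD was 0.54 in the lymphomas and 2.84 in the wild-type arrays, and the difference of 0.52 had an interval of -2.06 to 3.10 (adjusted p 0.789 in limma). It was -0.05, of opposite sign, against replicates 2 to 5 (-3.11 to 3.02, adjusted p 0.982). Without wild-type replicate 5 the difference against the remaining wild-type arrays was -0.22. Wild-type replicates 3 and 4 were also the arrays with the lowest mean level of 9 proliferation genes, 8.61 and 8.83, against 12.04 to 12.38 in the lymphomas and 10.99 to 12.18 in the other wild-type arrays, and the part of cell cycle state in the Ifng values was not tested.

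Fas ligand was higher on average in the lymphomas by both probe sets, without passing the test. By 1418803_a_at, Fasl was 8.30, 6.20, 7.52, 8.83 and 8.06 in lymphomas 1 to 5, against 6.95, 5.94, 9.80, 6.63, 5.11 and 5.46 in wild-type replicates 1 to 6. By 1449235_at, it was 9.41, 7.28, 8.67, 10.02 and 9.74 in lymphomas 1 to 5, against 7.48, 7.04, 10.69, 8.27, 9.07 and 8.59 in wild-type replicates 1 to 6. In both, wild-type replicate 3 was the highest of all 11 arrays, and lymphoma 2 was the lowest lymphoma. The differences were 1.14 (-0.58 to 2.86, adjusted p 0.356 in limma) and 0.50 (-0.96 to 1.96, adjusted p 0.642). They were 0.92 (adjusted p 0.464) and 0.25 (adjusted p 0.821) against replicates 2 to 5. Without wild-type replicate 3, the first difference against the other wild-type arrays became 1.77 with an adjusted p of 0.0487 in limma.

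Nkg7, which encodes a granule membrane protein needed for normal degranulation, was at a high and even level on all T cell arrays. It was 13.60, 13.44, 13.57, 13.96 and 13.31 in lymphomas 1 to 5, against a lowest value of 12.83, a median of 13.41 and a highest value of 13.93 in the 6 wild-type arrays. The groups overlapped almost fully. The difference of 0.19 did not pass (adjusted p 0.583 in limma). Its interval of -0.29 to 0.67 was the narrowest of the 13 against all 6 wild-type arrays, and leaves out a fall like that of Eomes or Gzmk. The difference against replicates 2 to 5 was 0.0074 (-0.47 to 0.49, adjusted p 0.982).

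Eomesodermin had the largest fall of the set, by both probe sets. By 1426001_at, Eomes was 4.51, 5.75, 4.84, 4.87 and 4.44 in lymphomas 1 to 5, against 6.93, 9.21, 11.01, 10.58, 10.37 and 7.68 in wild-type replicates 1 to 6. By 1435172_at, it was 5.59, 6.66, 5.32, 5.29 and 5.09 in lymphomas 1 to 5, against 8.00, 10.07, 11.26, 10.83, 8.82 and 8.29 in wild-type replicates 1 to 6. All 5 lymphomas lay below all 6 wild-type arrays by both, with 4 of 5 lymphomas near the floor by the first probe set and 1 of 5 by the second, and the lowest wild-type values were those of replicates 1 and 6. Against all 6 wild-type arrays the differences were -4.41 (95% interval -5.97 to -2.85), or 21.3-fold lower, with an adjusted p of 0.00234 in limma, and -3.96, or 15.5-fold lower, with an adjusted p of 0.00181. Against wild-type replicates 2 to 5, without the arrays rich in B cell and myeloid markers, the difference by the first probe set was -5.41 (42.4-fold lower, adjusted p 2.9e-05 in limma). By the second it was -4.66 (25.3-fold lower, adjusted p 0.000257).

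Tbx21, which encodes the other T-box factor of the set, stayed within the wild-type range or just above it. It was 10.48, 11.24, 12.20, 12.21 and 10.97 in lymphomas 1 to 5, against 10.26, 10.20, 12.12, 10.73, 11.45 and 10.93 in wild-type replicates 1 to 6. The difference was 0.47 (-0.45 to 1.39, adjusted p 0.476 in limma) against all 6 wild-type arrays and 0.29 (-0.78 to 1.36, adjusted p 0.664) against replicates 2 to 5. Prdm1 was lower in lymphomas 1, 3 and 5 than in lymphomas 2 and 4: it was 8.09, 9.82, 8.18, 9.83 and 8.05 in lymphomas 1 to 5, against 10.40, 8.04, 9.03, 7.62, 8.54 and 10.41 in wild-type replicates 1 to 6. The highest wild-type values of Prdm1, a gene that plasma cells also express, were those of replicates 1 and 6. The difference was -0.21 (-1.52 to 1.10, adjusted p 0.832 in limma) against all 6 and 0.48 (-0.61 to 1.58, adjusted p 0.473) against replicates 2 to 5, with the sign turned.

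Wild-type replicate 3 set much of the spread. It was the highest of the 6 wild-type arrays in 12 of the 13 member probe sets, all but Prdm1, and the highest of all 11 T cell arrays in 9. The mean log2 level of the 10 genes was 8.83 to 9.50 in the lymphomas, against 11.68 in wild-type replicate 3 and 9.07 to 10.15 in the other wild-type arrays. On this array the B cell, NK cell and myeloid marker lists had means of 7.79, 6.59 and 6.51, the last being the lowest of the 11 arrays, and the 9 NK-type lectin receptors had a mean of 7.79, the highest of the 11. Their part in the member values was not tested. The 8 genes whose pattern over the 11 T cell arrays was most like the mean of the standardised members were Cyp17a1 (Pearson r 0.95), Pdgfb (0.91), Cdhr1 (0.89), Clec4g (0.89), Kcnj5 (0.89), Bmp5 (0.89), Islr (0.88) and Ube2g2 (0.87). These coefficients describe 11 arrays with 1 high array among them, and the levels of all but Ube2g2 were low, with no value above 7.35.

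**Figure D4:**
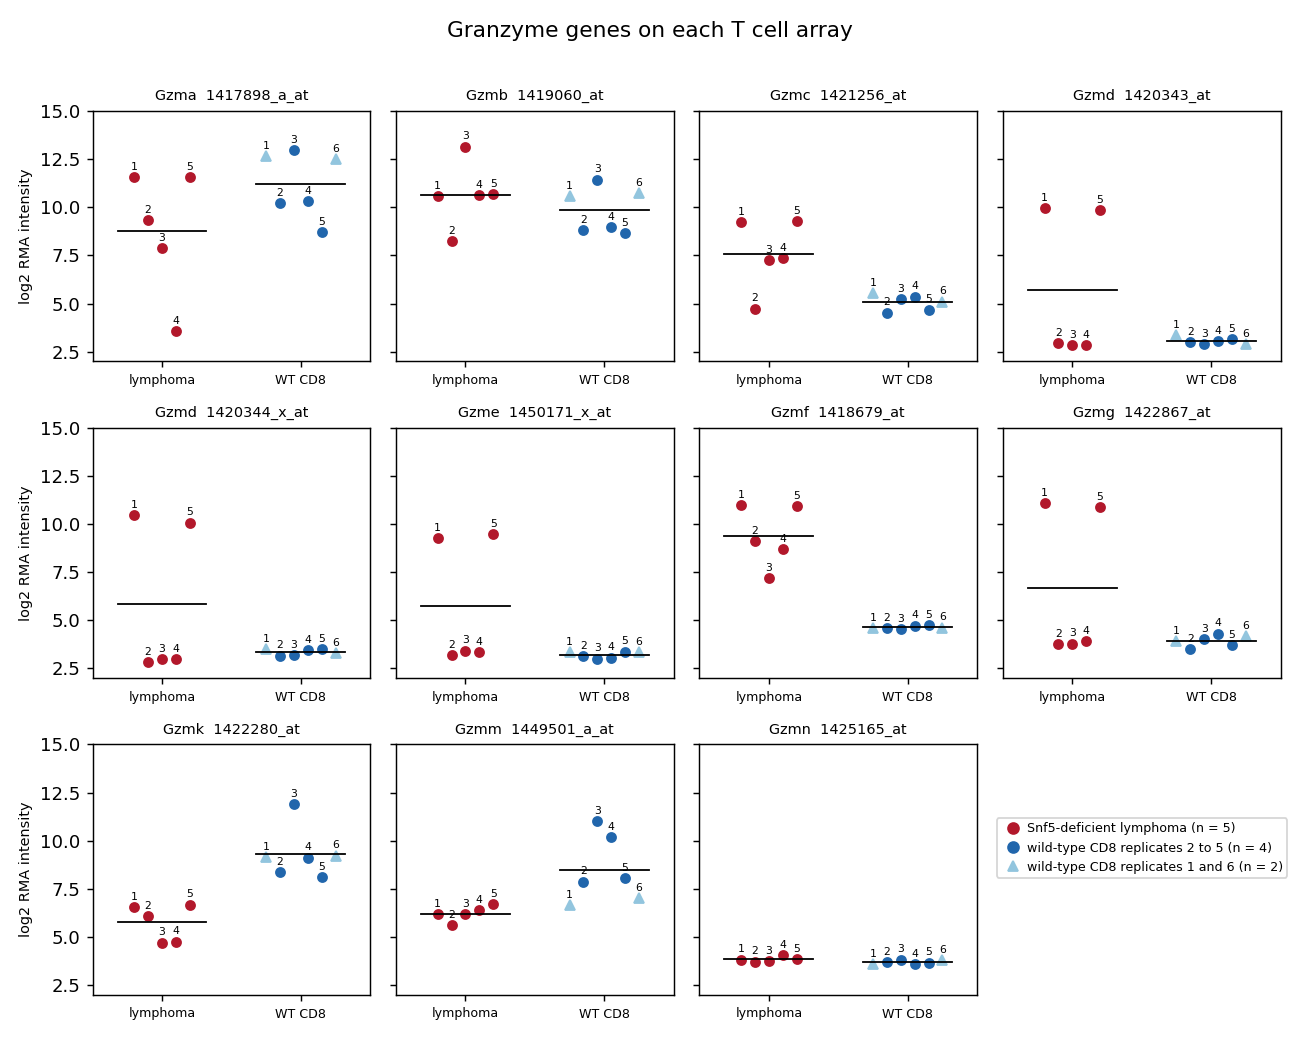
Log2 RMA intensity (vertical axis) of the granzyme probe sets on each lymphoma array (left of each panel) and wild-type CD8 array (right), numbered by replicate, with the group mean as a bar. Gzmf was higher in all 5 lymphomas than in any wild-type array, and Gzmd, Gzme and Gzmg were high in lymphomas 1 and 5 only.

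The other granzymes of the mouse, most of them in a cluster with Gzmb on chromosome 14, included members that rose. Among 7 of them, 2 were called higher against all 6 wild-type arrays, Gzmf and Gzmc, where 9.07% of all genes were called higher and 7.71% lower, and the median change was 2.52. Against wild-type replicates 2 to 5, 2 were called higher and 1 lower, where 13.2% of genes were called in each direction. Gzmf, a granzyme known from strongly stimulated mouse lymphocytes, was 10.98, 9.11, 7.20, 8.72 and 10.92 in lymphomas 1 to 5, against 4.55 to 4.74 in the wild-type arrays, all 6 of them near the floor. It was 4.75 higher (26.8-fold, adjusted p 0.000601 in limma), and 4.73 higher against replicates 2 to 5 (adjusted p 0.00156).

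Gzmd, Gzme and Gzmg were on in some lymphomas and near the floor in the rest. Gzmg was 11.10, 3.76, 3.79, 3.91 and 10.89 in lymphomas 1 to 5, against 3.49 to 4.31 in the wild-type arrays. Gzme was 9.28, 3.20, 3.42, 3.33 and 9.49 in lymphomas 1 to 5, against 3.01 to 3.38 in the wild-type arrays. Gzmd was 9.94, 2.95, 2.85, 2.83 and 9.86 by 1420343_at, against 2.88 to 3.34 in the wild-type arrays. Lymphomas 1 and 5, which were high in all of these, are the pair that was most alike over the whole array. They are also the lymphomas with high Xist. On the 6 wild-type arrays Xist was high as well (11.61 to 13.16), with these 3 genes near the floor on all 6. The part of sex in the levels of these 3 genes among the lymphomas was not tested. None of the 3 passed the test against all 6 wild-type arrays (adjusted p 0.186 to 0.234 in limma, and 0.274 by the second Gzmd probe set), and probe sets of these closely related genes may read each other's RNA. Gzmc was 9.22, 4.73, 7.26, 7.34 and 9.30 in lymphomas 1 to 5, against 4.53 to 5.54 in the wild-type arrays, a 5.65-fold difference (adjusted p 0.0350 in limma) that kept its call in 3 of 11 repeats without 1 array. It was 2.62 higher on the log2 scale against replicates 2 to 5 (adjusted p 0.0496), a call kept in 1 of 9 such repeats.

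Gzmm, a granzyme of innate lymphocytes on chromosome 10, ran the other way. It was 6.19, 5.63, 6.18, 6.42 and 6.69 in lymphomas 1 to 5, against 6.66, 7.88, 11.02, 10.18, 8.06 and 7.01 in wild-type replicates 1 to 6. It was called lower against replicates 2 to 5 (-3.07, 8.37-fold lower, adjusted p 0.00766 in limma) and not against all 6 (-2.25, adjusted p 0.0608). Gzmn was near the floor on all 11 arrays.

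Genes that work with the set were counted beside all genes. Against all 6 wild-type arrays 9.07% of all genes were called higher and 7.71% lower, and against replicates 2 to 5 13.2% in each direction. The count of granule genes called was near these shares or below them, and that of effector transcription factors was above them. The lists, here and below, were chosen with earlier results of these data known, so their counts are descriptions and not tests. Of 12 genes for granule assembly and release, 1 was called, Lyst, a regulator of lysosomal trafficking, which fell by 1.81 against all 6 wild-type arrays (adjusted p 0.000662 in limma) and by 1.71 against replicates 2 to 5 (adjusted p 0.00172). Of 8 effector transcription factors, 4 were called higher and 2 lower in both comparisons. The AP-1 family member Batf rose by 2.49 (5.62-fold, adjusted p 0.00104), with its partner Irf4 higher by 1.83 (adjusted p 0.0270) and the activation-induced repressor Bhlhe40 higher by 2.27 (adjusted p 0.0325). Irf4 and Bhlhe40 kept their calls in 3 and 4 of 11 repeats without 1 array, and in 9 of 9 repeats against replicates 2 to 5. Hopx, a homeodomain protein of effector and memory cells, fell by 3.08 (8.48-fold lower, adjusted p 0.00178). Against replicates 2 to 5 the changes of Batf, Irf4, Bhlhe40 and Hopx were 2.93, 2.53, 2.95 and -3.47 (adjusted p 7.27e-05, 0.000121, 0.00457 and 0.00109).

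Of 12 cytokine receptor and effector surface genes, 1 was called higher and 2 lower against all 6 wild-type arrays. Over all genes, 9.07% were called higher and 7.71% lower there, and 13.2% in each direction against replicates 2 to 5. Il2ra, the high-affinity chain of the interleukin-2 receptor, rose by 3.83 (14.2-fold, adjusted p 0.0025 in limma), and Ifngr1, a chain of the receptor for interferon gamma, fell by 2.40 (5.27-fold lower, adjusted p 0.00729). Against replicates 2 to 5, Il2ra rose by 4.32 (adjusted p 0.0014) and Ifngr1 fell by 2.75 (adjusted p 0.00473). S1pr5, an exit receptor of effector cells, fell by 3.26 (adjusted p 0.0267) but did not pass against replicates 2 to 5 (-2.49, adjusted p 0.0617), and kept its call in 7 of 11 repeats without 1 array. Of 10 death ligands, cytokines and chemokines, 2 were called lower in both comparisons: Ltb, the membrane anchor of lymphotoxin, which fell by 2.65 (adjusted p 0.0205), and the chemokine gene Ccl4, which fell by 2.16 (adjusted p 0.0476). Their differences were -3.60 (adjusted p 7.22e-05) and -2.64 (adjusted p 0.0245) against replicates 2 to 5. Ltb lost its call without lymphoma 4 (adjusted p 0.0526 in limma). Ccl4 kept its call in 3 of 11 repeats without 1 array and in 4 of 9 against replicates 2 to 5, and had an adjusted p of 0.0758 against replicates 2 to 5 with replicate number as a block.

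Of 9 measured lectin receptors that killer cells share with NK cells, 6 were called lower against all 6 wild-type arrays, and 3 lower and 1 higher against replicates 2 to 5. The shares over all genes, for this list and those below, were 9.07% higher and 7.71% lower against all 6. Against replicates 2 to 5 they were 13.2% in each direction. Klrd1, encoding CD94, fell by 6.45 (87.4-fold lower, adjusted p 0.000516 in limma), and its difference against replicates 2 to 5 was -7.22 (adjusted p 0.000177). Klrc1, encoding its partner NKG2A, fell by 4.07 (adjusted p 0.00104), and by 3.86 against replicates 2 to 5 (adjusted p 0.00318). Of 4 measured NK cell markers, 1 was called lower against all 6 wild-type arrays, Klra8, which is also among the 6 lectin receptors counted above. Klra8 did not pass against replicates 2 to 5 (-1.44, adjusted p 0.0561). In that second comparison 1 of the 4 was called higher and 0 lower by limma, with 1 in each direction at an unadjusted p under 0.05. Of the 4, 2 were near the floor on all lymphoma arrays, while the mean of the list was 6.19 to 7.60 in the lymphomas, against 10.00 in both wild-type replicates 1 and 6 and 6.18 to 6.78 in the other wild-type arrays. Of 9 naive and memory T cell genes, 3 were called lower against all 6 wild-type arrays, the quiescence factor Klf2, Bcl6 and the interleukin-7 receptor gene Il7r, which fell by 2.39, 2.13 and 1.80 (adjusted p 0.0287, 0.0299 and 0.0222 in limma). Against replicates 2 to 5, 4 were called lower. There Klf2 fell by 2.91 (adjusted p 0.0105) and Il7r by 2.25 (adjusted p 0.00497), while Bcl6 did not pass (-1.66, adjusted p 0.0715). Klf2, Bcl6, Il7r and Klra8 kept their calls against all 6 in 4, 5, 11 and 3 of 11 repeats without 1 array.

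Of 9 proliferation genes, 2 were called higher against all 6 wild-type arrays and 7 against replicates 2 to 5. Over all genes, 9.07% were called higher and 7.71% lower against all 6, and 13.2% in each direction against replicates 2 to 5. Of 8 T cell markers, 1 was called lower in both comparisons, the adhesion receptor gene Cd2, which fell by 4.05 (16.6-fold lower, adjusted p 0.0102 in limma), and by 4.54 against replicates 2 to 5 (adjusted p 0.00997). The mean of the T cell markers was 11.50 to 12.82 in the lymphomas and 10.52 to 13.16 in the wild-type arrays. Of 9 myeloid markers, 6 were called higher against replicates 2 to 5 and 0 were called against all 6 by limma, where 1 was higher at an unadjusted p under 0.05. The lysosomal gene Cd68 differed by 3.77 (adjusted p 0.000186) against replicates 2 to 5 and by 2.35 (adjusted p 0.123) against all 6. The part of the myeloid markers in the member values was not tested. Of 7 B cell markers, 1 was called lower against all 6 wild-type arrays, Cd79b (-4.01, adjusted p 0.000958), and 3 against replicates 2 to 5, where Cd79b was at -3.37 (adjusted p 0.000709). Of 5 thymocyte markers, 3 were called lower in both, led by Dntt (-4.32, adjusted p 0.000576), which was at -4.66 against replicates 2 to 5 (adjusted p 0.000606).

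In fibroblasts, which are not cytotoxic cells, most of the set was near the floor, and Eomes was the only member called changed. On all 12 MEF arrays Gzma, Gzmb, Gzmk, Ifng, Tbx21 and both Fasl probe sets were near the floor, and fibroblast markers averaged 10.59 to 11.30 there, against 7.05 to 7.65 on the T cell arrays. Both sets of wild-type MEF arrays proved to be repeats of the same hybridisations and were counted once, so 9 distinct arrays were compared, and both mutant lines share their wild-type arrays. In Snf5 Ezh2-deficient MEFs, 2 of 13 member probe sets were called higher, both of Eomes, and 0 lower by limma, where 12.1% of all probe sets were called higher and 13.8% lower. Without adjustment 3 were higher and 0 lower. In Ezh2-deficient MEFs, 0 were called in either direction, where 0.986% of all probe sets were called higher and 2.15% lower, and without adjustment 2 were higher and 0 lower.

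Eomes rose in Snf5 Ezh2-deficient MEFs. By 1426001_at it was 7.15, 6.96 and 6.65 in Snf5 Ezh2-deficient, 6.15, 6.02 and 6.70 in Ezh2-deficient, and 6.03, 5.94 and 5.93 in wild-type MEFs. By 1435172_at it was 6.68, 6.35 and 6.18 in Snf5 Ezh2-deficient, 5.83, 5.80 and 6.32 in Ezh2-deficient, and 5.47, 5.51 and 5.57 in wild-type MEFs. The Snf5 Ezh2-deficient arrays were above all wild-type arrays by both. These groups did not overlap in 3 of the 13 member probe sets, the uncalled Prdm1 among them, and the share over all probe sets is not given here. Ezh2-deficient replicate 3 lay within the range of the Snf5 Ezh2-deficient arrays by both Eomes probe sets, above their replicate 3. By 1435172_at the rise started close to the floor, with 1 of 3 wild-type arrays of each titled set near it. The rise in Snf5 Ezh2-deficient MEFs was 0.96 (95% interval 0.58 to 1.33, 1.94-fold, adjusted p 0.00204 in limma) and 0.89 (1.85-fold, adjusted p 0.00158). In Ezh2-deficient MEFs the differences were 0.32 (adjusted p 0.270) and 0.47 (adjusted p 0.105), without a call. Set against the Ezh2-deficient line directly, Snf5 Ezh2-deficient MEFs were higher by 0.63 (adjusted p 0.0183 in limma) by the first probe set and by 0.42 (adjusted p 0.0605) by the second. Eomes thus rose in MEFs that lack Snf5 and Ezh2 and fell in lymphomas that lack Snf5, and the cell types, genotypes and processing runs differ between the comparisons. The MEF groups were not matched in sex markers. Xist, by 1427262_at, was 4.46 to 9.69 in Ezh2-deficient MEFs, with 1 of 3 near the floor. Eif2s3y was 3.65 to 8.24 there, with 2 of 3 near the floor. In wild-type and Snf5 Ezh2-deficient MEFs Xist was near the floor on every array, and Eif2s3y was 8.02 to 8.53. The part of sex in the Eomes values was not tested.

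**Figure D5:**
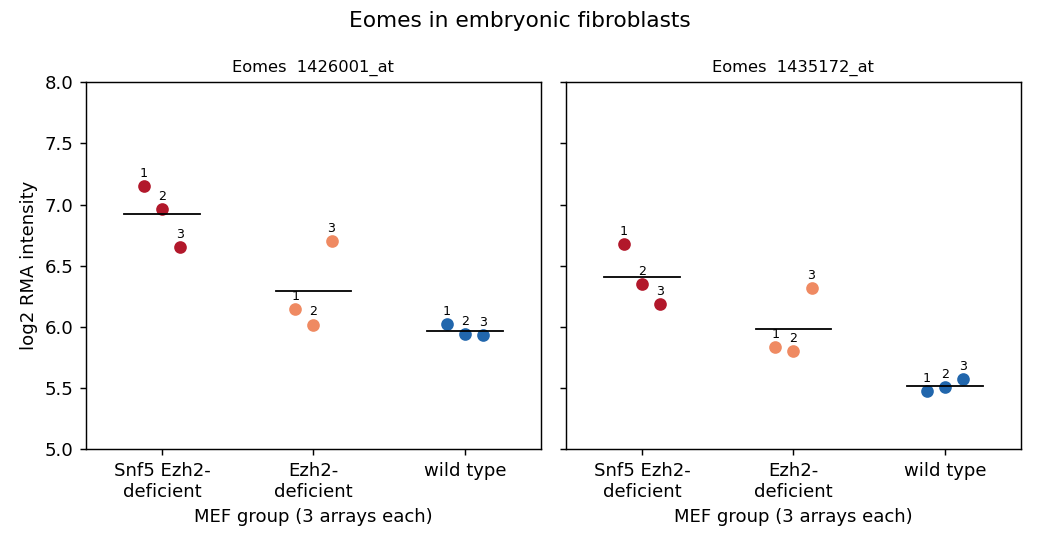
Log2 RMA intensity (vertical axis) of both Eomes probe sets on the 9 distinct MEF arrays by group (horizontal axis), numbered by replicate, with the group mean as a bar. The 3 Snf5 Ezh2-deficient arrays lie above the 3 wild-type arrays in both panels, and Ezh2-deficient replicate 3 lies above the other Ezh2-deficient arrays. The share of all probe sets whose groups do not overlap is not given here, so how common this is cannot be judged.

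Prdm1 was above the floor on all MEF arrays. It was 6.48, 6.40 and 6.51 in Snf5 Ezh2-deficient, 6.30, 6.62 and 6.29 in Ezh2-deficient, and 6.03, 6.35 and 6.25 in wild-type MEFs. The difference was 0.25 in Snf5 Ezh2-deficient MEFs (adjusted p 0.107 in limma) and 0.19 in the Ezh2-deficient line (adjusted p 0.288), without a call. Nkg7 lay between 5.62 and 5.90 and Prf1 between 5.41 and 6.20 on the 9 arrays, with no call.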

How the data were processed

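The authors hybridised total RNA to Affymetrix mouse arrays (430A 2.0) and processed the scans with RMA, per the labels' protocols, which name no software version. Values were deposited as RMA intensity on a linear scale and were log2-transformed here, which the design had not foreseen. The 64 control probe sets were left out. The values fell into separate RMA runs, 1 for the T cell arrays and 1 per MEF set, so tests stayed within a run or used offset-corrected values. Wild-type MEF arrays of the same number differed between sets by an SD of 0.0219 to 0.0241, against 0.137 to 0.152 for different numbers, and were averaged. The design had planned for 12 separate MEF arrays.

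Group means were tested in R 4.3.3 by limma 3.58.1, using lmFit and eBayes, and p-values were adjusted over 22626 probe sets by Benjamini and Hochberg's method. Arrays give no counts, so their number limits the precision. Genes in lists were counted through the probe set with the highest mean. The members and the 17 gene lists were chosen with earlier results of these data known. Named genes were all members, all other granzymes, up to 4 called genes per list with the largest change, and the 8 genes most like the members' mean; Smarcb1, Xist, Eif2s3y and Cd8b1 serve as checks. Deviations of same-numbered arrays of lymphomas and wild-type replicates 2 to 5 had correlations of 0.14 to 0.385, from the data and not the labels. For number 3, another wild-type array correlated more (0.227 against 0.14). Against all 6 wild-type arrays, numbers 1, 3 and 5 each correlated more with another array. A pairing is thus uncertain, and blocked values are given where they end a call. Sequences and gene positions are RefSeq's, of assembly GRCm38.p6, since the array values carry no coordinates.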

Additional observations from a re-analysis of the deposited data

Results flagged for a closer look

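Wild-type CD8 replicate 3 stood far from the others in 2 probe sets of the set. For Gzmk it had a log2 intensity of 11.90, and the next of the 6 wild-type arrays was at 9.23, a gap of 0.708 of the group's whole range. For Gzmb it had 11.44, and the next of wild-type replicates 2 to 5 was at 8.95, a gap of 0.889 of the range. Among all 6 wild-type arrays the next Gzmb value was 10.71, in replicate 6, and Gzmb was not flagged there. Gzmk was not flagged among replicates 2 to 5. In all, 39 groups of a probe set were examined for such an array, of which chance picks about 1 in 20. The number flagged was 2, which is near that share.

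The effect on Eomes differed between the mutant MEF lines by 1426001_at, with Snf5 Ezh2-deficient MEFs 0.63 above Ezh2-deficient MEFs (adjusted p 0.0183 in limma). These lines were not matched in Xist and Eif2s3y, and the part of sex was not tested.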

How the results depend on the processing

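Both Eomes probe sets kept their call and direction under every alternative tried in the lymphoma and the Snf5 Ezh2-deficient MEF comparisons: each array left out, the replicate block, repeated quantile normalisation, median centring, a pseudocount of 32, dim probe sets left out, a trended robust variance, array weights, the own MEF set alone and, chosen after seeing the data, lymphomas 1 and 5 averaged as 1 sample. Gzmk kept its call everywhere except against wild-type replicates 2 to 5 with the replicate block (-3.82, adjusted p 0.0523). Leaving out each array gave 3 member probe sets called lower against all 6 wild-type arrays and 3 to 4 against replicates 2 to 5; those called higher ranged from 0 to 1 against all 6. With array weights, 5 were called lower against replicates 2 to 5, Prf1 added by both probe sets (-0.95 and -2.26). Over all probe sets, leaving out each array gave 1257 to 1997 called higher against all 6 wild-type arrays, the lowest without lymphoma 4, and array weights gave 2692 called lower. In Ezh2-deficient MEFs leaving out each array gave 46 to 268 called higher and 112 to 473 lower; the replicate block gave 114 and 245, and the own set alone 138 and 285. Same-numbered MEF arrays had correlations of -0.042 to 0.194, and their numbers were not taken as pairs in the main tests.

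Uncalled differences near 0 turned sign. Against all 6 wild-type arrays, Prdm1 ranged from -0.49 to 0.066 with each array left out, turning without wild-type replicate 1 or 6, and was 0.066 with the replicate block and 0.015 with array weights. Ifng ranged from -0.22, without wild-type replicate 5, to 1.30, and was -0.32 with array weights. Against replicates 2 to 5, Ifng ranged from -1.47 to 1.06, turning without lymphoma 4 or wild-type replicate 3 or 4, and was 0.015 with repeated quantile normalisation. Nkg7 ranged from -0.18 to 0.13, turning without lymphoma 4 or wild-type replicate 5, and was -0.089 with median centring and -0.17 with array weights. Without wild-type replicate 2, Fasl by 1449235_at and Tbx21 turned, with ranges of -0.32 to 0.89 and -0.015 to 0.62, and Fasl was -0.023 with array weights. The cause was not tested. Folds that rest on values near the floor, as for Eomes, Gzmk and Gzmf, are limited by the signal of these arrays.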
